A study of Mus musculus with 9 samples.

Results

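Polycomb and histone methyltransferase genes were followed across 3 groups of D3 mouse embryonic stem (ES) cells. The set was a list of 39 genes named by symbol: 9 of Polycomb repressive complex 2 (PRC2), 15 of Polycomb repressive complex 1 (PRC1) and 15 histone lysine methyltransferases outside PRC2. All 39 were found among the 24421 genes of the count table, and all 39 passed the filter on low counts that left 14513 genes for testing. The groups were LAMP2A+DM-αKG (cells that overexpress LAMP2A, given 4 mM DM-αKG for 72 h), LAMP2A (cells labelled with the same overexpression, without DM-αKG) and VT (cells stably carrying the pCDH-control vector), with 3 libraries each. LAMP2A is the lysosomal receptor of chaperone-mediated autophagy, and DM-αKG is the cell-permeable dimethyl ester of α-ketoglutarate. Culture was feeder-free for all cells, on gelatin-coated dishes in serum medium that held ESGRO (leukaemia inhibitory factor). No label says how many clones stand behind a line, or that replicate libraries are of separate cultures, so the p-values reflect the spread of these libraries alone, which may be technical.

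PRC2 trimethylates lysine 27 of histone H3 (H3K27) through Ezh1 or Ezh2, which work only when bound to Eed and Suz12. PRC1 places ubiquitin on histone H2A through Ring1 or Rnf2. A PCGF protein decides which form of PRC1 is built, and in the canonical form a CBX protein reads H3K27 trimethylation and a PHC protein joins complexes to each other. In ES cells both complexes keep genes of differentiation silent, while KMT2 enzymes methylate H3K4, and the EHMT, SUV39H and SETDB enzymes methylate H3K9. α-Ketoglutarate is a cosubstrate of the JmjC demethylases, which remove many of these marks, and not of the methyltransferases listed here.

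Library totals ran from 23636074 to 32809875 counts. Lamp2, the gene of the overexpressed protein, had 95.4 to 99.3 CPM in LAMP2A+DM-αKG libraries, 403 to 407 CPM in LAMP2A libraries and 56.9 to 60.0 CPM in VT libraries. The LAMP2A+DM-αKG and LAMP2A libraries thus differ in the level of Lamp2 as well as in DM-αKG, and what each contributes to the results below cannot be told apart. CPM are counts scaled to a common library size (library total times its TMM factor), and a gene was called changed when the Benjamini-Hochberg adjusted p of edgeR's quasi-likelihood test, taken over all 14513 genes, was under 0.05. The replicates of a group lay very close to each other (common biological coefficient of variation 2.74%), so small differences were called too. VT libraries differed from each other more than the libraries of the other groups did. The spread was estimated over all 3 groups together. The summed level of 10 ES cell markers was 6768 to 6820 CPM in LAMP2A+DM-αKG libraries, 1884 to 1889 CPM in LAMP2A libraries and 7836 to 8303 CPM in VT libraries, and no marker was at 0 in any group. All 10 fell in LAMP2A against VT (42.1% of all genes) and rose in LAMP2A+DM-αKG against LAMP2A (41.1% of all genes). Pou5f1, for example, averaged 980.1 ± 7.27 CPM in LAMP2A+DM-αKG cells, 323 ± 4.65 CPM in LAMP2A cells and 1386 ± 89.0 CPM in VT cells (SD, n = 3 each). The sum of 12 fibroblast markers was 2120 to 2205 CPM in LAMP2A+DM-αKG libraries, 4159 to 4191 CPM in LAMP2A libraries and 1436 to 1640 CPM in VT libraries. In LAMP2A against VT, 9 of the 10 fibroblast markers tested rose (43.0% of all genes) and Thy1 fell. Fn1 and Vim made up most of these sums, Lum had no count in VT, and Col3a1 averaged 0.626 ± 0.989 CPM in LAMP2A+DM-αKG cells, 34.8 ± 1.03 CPM in LAMP2A cells and 0.0865 ± 0.0771 CPM in VT cells (SD, n = 3 each). Dcn, Postn, Col1a2 and Col3a1 had 1, 3, 6 and 7 counts over all VT libraries. These genes entered the test through their LAMP2A counts, so the number of fibroblast markers that rose is a description only. Both marker sums moved with the groups compared here, and their part in the results on the 39 genes was not tested. In these bulk libraries, fewer cells of one type and less RNA per cell cannot be told apart.

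To show what the most changed genes look like at their starts, the 250 bases before the start site that RefSeq lists are printed below for 6 of them. They are the 3 most lowered (Eed, Phc1, Phf19) and the 3 most raised (Cbx8, Bmi1, Rbbp7) in LAMP2A against VT among genes with a single listed start. The sequences are RefSeq's, on build GRCm38.p6, each read 5′ to 3′ on the strand of its gene, with CpG dinucleotides in capitals. Except for Bmi1, the listed start sites differ from the GENCODE gene starts: all 250 printed bases of Phc1 lie inside its GENCODE gene, as do 56 of Cbx8, 50 of Phf19 and 7 of Eed, and none of Bmi1 and Rbbp7.
Eed (chr7:89980977-89981226, minus strand): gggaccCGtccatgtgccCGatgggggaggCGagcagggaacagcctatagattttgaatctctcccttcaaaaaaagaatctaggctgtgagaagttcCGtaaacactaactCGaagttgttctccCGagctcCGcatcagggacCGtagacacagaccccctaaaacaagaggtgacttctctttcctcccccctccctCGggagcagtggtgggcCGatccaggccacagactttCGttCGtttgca
Phc1 (chr6:122340228-122340477, minus strand): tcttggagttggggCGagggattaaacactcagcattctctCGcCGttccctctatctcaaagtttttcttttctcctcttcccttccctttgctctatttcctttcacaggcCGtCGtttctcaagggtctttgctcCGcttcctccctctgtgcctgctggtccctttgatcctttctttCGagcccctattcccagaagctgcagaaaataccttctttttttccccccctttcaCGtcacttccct
Phf19 (chr2:34913977-34914226, minus strand): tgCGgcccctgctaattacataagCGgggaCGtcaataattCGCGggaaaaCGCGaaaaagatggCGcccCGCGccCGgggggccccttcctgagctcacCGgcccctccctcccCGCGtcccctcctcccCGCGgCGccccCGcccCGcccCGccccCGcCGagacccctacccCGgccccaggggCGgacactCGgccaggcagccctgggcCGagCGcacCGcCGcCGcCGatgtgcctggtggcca
Cbx8 (chr11:119040914-119041163, minus strand): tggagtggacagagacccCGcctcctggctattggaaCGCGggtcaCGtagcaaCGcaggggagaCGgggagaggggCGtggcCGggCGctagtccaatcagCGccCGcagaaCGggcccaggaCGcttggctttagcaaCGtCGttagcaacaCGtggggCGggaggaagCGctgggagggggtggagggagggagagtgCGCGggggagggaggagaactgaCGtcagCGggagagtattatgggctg
Bmi1 (chr2:18676768-18677017, plus strand): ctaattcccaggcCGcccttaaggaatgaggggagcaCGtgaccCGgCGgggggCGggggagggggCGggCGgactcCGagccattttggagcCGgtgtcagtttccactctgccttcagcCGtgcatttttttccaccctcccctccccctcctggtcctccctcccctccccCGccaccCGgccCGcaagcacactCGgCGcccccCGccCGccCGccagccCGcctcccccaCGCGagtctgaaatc
Rbbp7 (chrX:162760122-162760371, plus strand): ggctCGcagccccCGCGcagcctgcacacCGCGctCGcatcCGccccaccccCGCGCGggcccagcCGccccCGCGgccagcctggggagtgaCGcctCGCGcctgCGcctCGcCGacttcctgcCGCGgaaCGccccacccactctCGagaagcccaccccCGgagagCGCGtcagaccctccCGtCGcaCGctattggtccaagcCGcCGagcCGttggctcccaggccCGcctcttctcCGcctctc
In these 250 bases CpG occurred 12 times for Eed, 8 times for Phc1 and 31 times for Phf19, and 22 times for Cbx8, 21 times for Bmi1 and 34 times for Rbbp7. Windows of 300 bases (250 before and 50 after the start) were listed for 33 of the 39 genes, 40 windows in all, with no entry for Pcgf1, Cbx2, Kmt2b, Nsd1, Ash1l and Smyd3. CpG occurred a median of 30 times per window (range 2 to 56), against a median of 7 times (range 0 to 67) in all 32851 listed windows. The GC box GGGCGG stood in 31 of the 40 windows (77.5%), against 35.7% of all windows. The E-box CACGTG stood in 22.5% of them against 7.15% of all windows, and AAGATGGCG, the core letters of a YY1 motif, in 12.5% against 1.40%. Of the 5 genes with an AAGATGGCG match, Phc3 and Suv39h1 rose and Dot1l, Phf19 and Suv39h2 fell in LAMP2A against VT. CCAAT stood in 35% of the windows against 37.4% of all, ATGCAAAT in 2.5% (Phc2) against 1.74%, and TATAAA in none against 13.6%. All were searched on both strands, none of these letter strings contains another, and a match describes the letters of the window only. The 32851 windows were matched to the 40 neither for CpG nor for expression in these cells. Whether the shares are particular to the 39 genes was not tested.

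LAMP2A cells differed from VT cells in most of the 39 genes, in both directions. Of the 39, 17 rose and 19 fell in LAMP2A against VT (43.0% and 42.1% of all genes), and 3 did not pass the test (Pcgf2, Kmt2b and Kmt2d). Of all 14513 genes tested, 85.1% were called in the same comparison, so the share of the 39 (92.3%) stands beside a high background. At a minimum of 2-fold, 6 of the 39 were higher (Rbbp7, Bmi1, Pcgf5, Cbx8, Phc2 and Suv39h1) and 3 were lower (Eed, Mtf2 and Phc1), against 19.8% and 9.61% of all genes. The median log2 fold change was -0.08 for the 39 and 0.01 for all genes, and the median size of the change, sign aside, was 0.44 against 0.54. PRC2 genes fell more often than they rose (3 higher, 6 lower of 9), PRC1 genes rose more often than they fell (9 higher, 5 lower of 15), and of the methyltransferases outside PRC2, 5 of 15 were higher and 8 lower. The 3 libraries of LAMP2A did not overlap with those of VT for 34 of the 39 genes, against 85.0% of all genes.

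The other 2 comparisons set the DM-αKG libraries against each of these groups, and so share libraries with the first. In LAMP2A+DM-αKG against LAMP2A, 22 of the 39 rose and 12 fell, where 83.2% of all genes were called (41.1% higher, 42.1% lower). Among the 39, 2 were at least 2-fold higher (Mtf2 and Phf19) and 4 at least 2-fold lower (Rbbp7, Bmi1, Cbx8 and Phc2), against 8.06% and 17.6% of all genes. Their median log2 fold change was 0.23, against 0.00 over all genes. In LAMP2A+DM-αKG against VT, 17 of the 39 rose and 10 fell, where 58.7% of all genes were called (29.3% higher, 29.3% lower), and the median was 0.08 against 0.00. Of these, 2 genes (Cbx8 and Suv39h1) were at least 2-fold higher, against 3.93% of all genes, and none was at least 2-fold lower, against 2.63%. The libraries of the groups did not overlap for 37 of the 39 genes in LAMP2A+DM-αKG against LAMP2A (85.5% of all genes) and for 27 in LAMP2A+DM-αKG against VT (61.2%).

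The genes that stood farthest from VT in LAMP2A+DM-αKG cells were Cbx8, Suv39h1, Pcgf5 and Ezh1 on the higher side, at log2 fold changes of 1.66, 1.11, 0.76 and 0.58. On the lower side they were Eed at -0.37 (SE 0.03, edgeR adjusted p = 7.6e-13), Mtf2 at -0.33 (SE 0.03, edgeR adjusted p = 3.6e-11), Rnf2 at -0.27 and Smyd3 at -0.27. Bmi1 was 1.29-fold higher than in VT and Rbbp7 1.13-fold higher, against 4.44-fold and 3.37-fold for LAMP2A without DM-αKG against the same VT libraries.

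**Figure D1:**
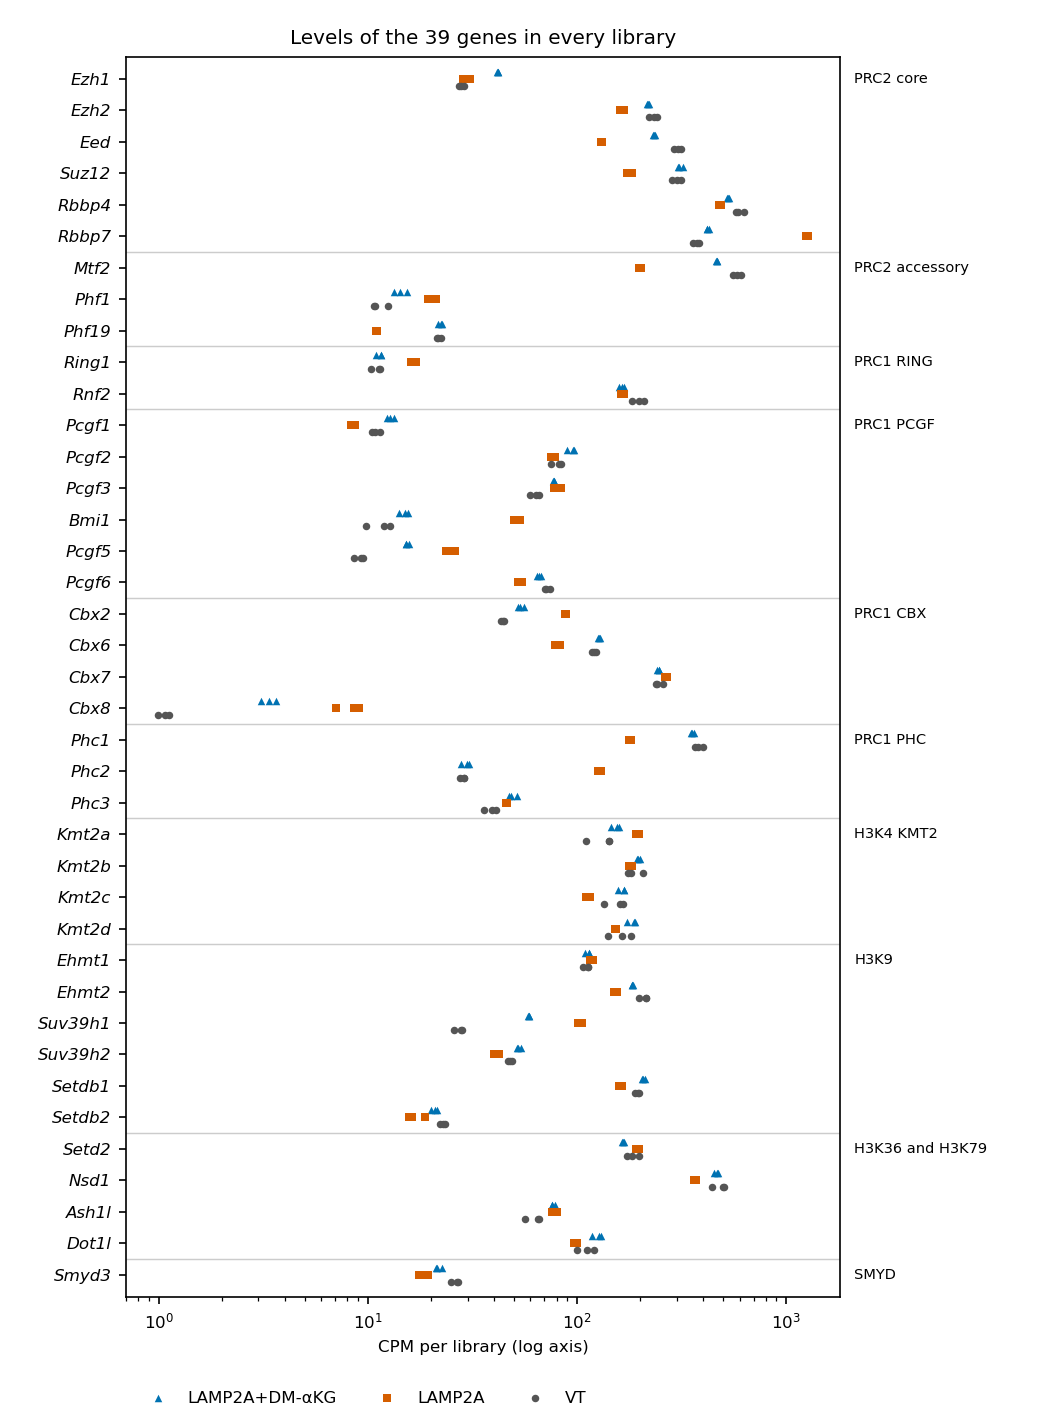
CPM (log axis) of each of the 39 genes in every library, ordered by role, with LAMP2A+DM-αKG as triangles, LAMP2A as squares and VT as circles. Rbbp7 in LAMP2A libraries has the highest level, at 1248 to 1268 CPM, and Cbx8 in VT libraries the lowest, at 0.998 to 1.12 CPM.

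Among the core subunits of PRC2, Eed, Suz12 and Ezh2 fell in LAMP2A against VT, while Rbbp7 rose. Eed, which binds the finished H3K27 mark and stimulates the enzyme, lies at chr7:89954654-89980983 (mm10, GENCODE coordinates, here and for the genes below). It had 235, 237 and 232 CPM in LAMP2A+DM-αKG libraries, 131, 132 and 131 CPM in LAMP2A libraries and 293, 313 and 304 CPM in VT libraries. The 3 groups did not overlap, and VT was the highest. Its log2 fold change was -1.21 (SE 0.03, edgeR adjusted p = 2.5e-28) in LAMP2A against VT, a 2.31-fold lower level, and 0.84 (SE 0.03, edgeR adjusted p = 2.3e-23) in LAMP2A+DM-αKG against LAMP2A.

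Suz12, the scaffold on which the core of PRC2 is built, had 305, 322 and 309 CPM in LAMP2A+DM-αKG libraries, 183, 174 and 174 CPM in LAMP2A libraries and 284, 301 and 316 CPM in VT libraries. LAMP2A libraries lay below all others, whereas the LAMP2A+DM-αKG and VT libraries overlapped. Suz12 was 1.70-fold lower in LAMP2A than in VT and 1.76-fold higher in LAMP2A+DM-αKG than in LAMP2A, with log2 fold changes of -0.76 (SE 0.03, edgeR adjusted p = 7.9e-21) and 0.82 (SE 0.03, edgeR adjusted p = 1.1e-21). The test was not passed in LAMP2A+DM-αKG against VT, with a log2 fold change of 0.06 and a 95% interval from -0.01 to 0.12 (edgeR adjusted p = 0.156), although Suz12 passed without VT replicate 3, at 0.09.

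Ezh2, the methyltransferase that predominates in dividing cells, had 216, 221 and 219 CPM in LAMP2A+DM-αKG libraries, 169, 166 and 161 CPM in LAMP2A libraries and 221, 242 and 234 CPM in VT libraries. It was 1.41-fold lower in LAMP2A than in VT, a log2 fold change of -0.49 (SE 0.03, edgeR adjusted p = 4.1e-16). LAMP2A+DM-αKG libraries lay above the LAMP2A libraries, at 0.41 on the log2 scale, and overlapped those of VT. The remaining difference from VT was -0.09 (SE 0.03, edgeR adjusted p = 0.0199). It did not pass without LAMP2A+DM-αKG replicate 1 or 3, nor without VT replicate 2, where it was -0.05 (edgeR adjusted p = 0.0967). Ezh1, its paralog with weaker enzyme activity, had 42.1, 41.9 and 41.6 CPM in LAMP2A+DM-αKG libraries, 30.9, 30.4 and 28.6 CPM in LAMP2A libraries and 27.8, 28.8 and 27.2 CPM in VT libraries. Ezh1 was highest in LAMP2A+DM-αKG, at 0.48 (SE 0.04, edgeR adjusted p = 5.3e-12) against LAMP2A and 0.58 (SE 0.05, edgeR adjusted p = 5.3e-13) against VT. In LAMP2A against VT the groups overlapped, and the log2 fold change of Ezh1 was 0.10 (SE 0.05, edgeR adjusted p = 0.0412). The call was lost when LAMP2A replicate 1 or 2 or VT replicate 1 or 3 was left out, with log2 fold changes of 0.08 to 0.10, and the authors' deposited table gives Ezh1 0.11 with an adjusted p of 0.13.

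Rbbp7 and Rbbp4 encode paired histone-binding proteins that serve PRC2 and also the CAF-1, NuRD and SIN3 complexes. Rbbp7 (chrX:162760402-162779092) had 419, 426 and 420.0 CPM in LAMP2A+DM-αKG libraries, 1268, 1253 and 1248 CPM in LAMP2A libraries and 361, 382 and 376 CPM in VT libraries. It was 3.37-fold higher in LAMP2A than in VT and 2.98-fold lower in LAMP2A+DM-αKG than in LAMP2A, with log2 fold changes of 1.75 (SE 0.03, edgeR adjusted p = 1.5e-33) and -1.57 (SE 0.03, edgeR adjusted p = 3.7e-32). No libraries of different groups overlapped. Rbbp4 had 525, 530.2 and 536 CPM in LAMP2A+DM-αKG libraries, 478, 481 and 489.9 CPM in LAMP2A libraries and 586, 628 and 574 CPM in VT libraries. It differed in the other direction and less, with log2 fold changes of -0.30 in LAMP2A against VT and 0.14 in LAMP2A+DM-αKG against LAMP2A. Genes on the opposite strand share 18% of the exon bases of Rbbp4 and 5.98% of those of Rbbp7, and such genes are less certain because no source used here gives the strand setting of the counting.

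The accessory proteins Mtf2, Phf1 and Phf19 (the Polycomb-like proteins) help PRC2 to bind CpG-rich DNA, and they did not move together. Mtf2 (chr5:108065674-108109004), the main Polycomb-like gene of ES cells, had 461, 470.4 and 467 CPM in LAMP2A+DM-αKG libraries, 204, 198 and 202 CPM in LAMP2A libraries and 560.1, 582 and 610.0 CPM in VT libraries. This was the most lowered of the 39 genes, 2.90-fold lower in LAMP2A than in VT and 2.32-fold higher in LAMP2A+DM-αKG than in LAMP2A. Its log2 fold changes were -1.54 (SE 0.03, edgeR adjusted p = 4.3e-31) and 1.21 (SE 0.03, edgeR adjusted p = 6.5e-28).

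Phf19 had 22.3, 22.7 and 21.8 CPM in LAMP2A+DM-αKG libraries, 10.9, 11.0 and 11.1 CPM in LAMP2A libraries and 22.5, 21.6 and 21.7 CPM in VT libraries. LAMP2A libraries lay at the lower level and the other 2 groups overlapped, with log2 fold changes of -0.99 (SE 0.06, edgeR adjusted p = 1.6e-17) in LAMP2A against VT and 1.01 (SE 0.06, edgeR adjusted p = 8.7e-18) in LAMP2A+DM-αKG against LAMP2A. Phf1 had 13.3, 14.2 and 15.4 CPM in LAMP2A+DM-αKG libraries, 19.4, 20.8 and 21.3 CPM in LAMP2A libraries and 10.7, 12.5 and 10.8 CPM in VT libraries. It was 1.80-fold higher in LAMP2A than in VT, at 0.85 (SE 0.07, edgeR adjusted p = 7.9e-14), and fell in LAMP2A+DM-αKG against LAMP2A, at -0.51 (SE 0.06, edgeR adjusted p = 5.6e-09). Genes on the opposite strand, Cuta among them, share 39.3% of the exon bases of Phf1, the largest such share among the 39, which makes its values less certain.

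Other genes of PRC2 accessory proteins were read from a list of 6. In LAMP2A against VT, 1 rose and 3 fell, with a median log2 fold change of -0.02. With DM-αKG, 3 rose and 2 fell against LAMP2A (median 0.10), and 2 rose and 3 fell against VT (median -0.16). Of the 6, 66.7%, 83.3% and 83.3% were called in these 3 comparisons, against 85.1%, 83.2% and 58.7% of all genes. Jarid2, which brings PRC2 to ubiquitinated nucleosomes, averaged 443 ± 4.45 CPM in LAMP2A+DM-αKG cells, 276 ± 1.86 CPM in LAMP2A cells and 513 ± 8.36 CPM in VT cells (SD, n = 3 each). Its log2 fold changes were -0.89 in LAMP2A against VT and 0.68 in LAMP2A+DM-αKG against LAMP2A. Epop (listed as E130012A19Rik), an elongin-binding subunit, was 1.53-fold lower in LAMP2A than in VT. Ezhip (listed as AU022751), an inhibitor of PRC2, averaged 3.99 ± 0.205 CPM in LAMP2A+DM-αKG cells, 7.01 ± 0.332 CPM in LAMP2A cells and 2.37 ± 0.339 CPM in VT cells (SD, n = 3 each), 2.98-fold higher in LAMP2A than in VT.

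**Figure D2:**
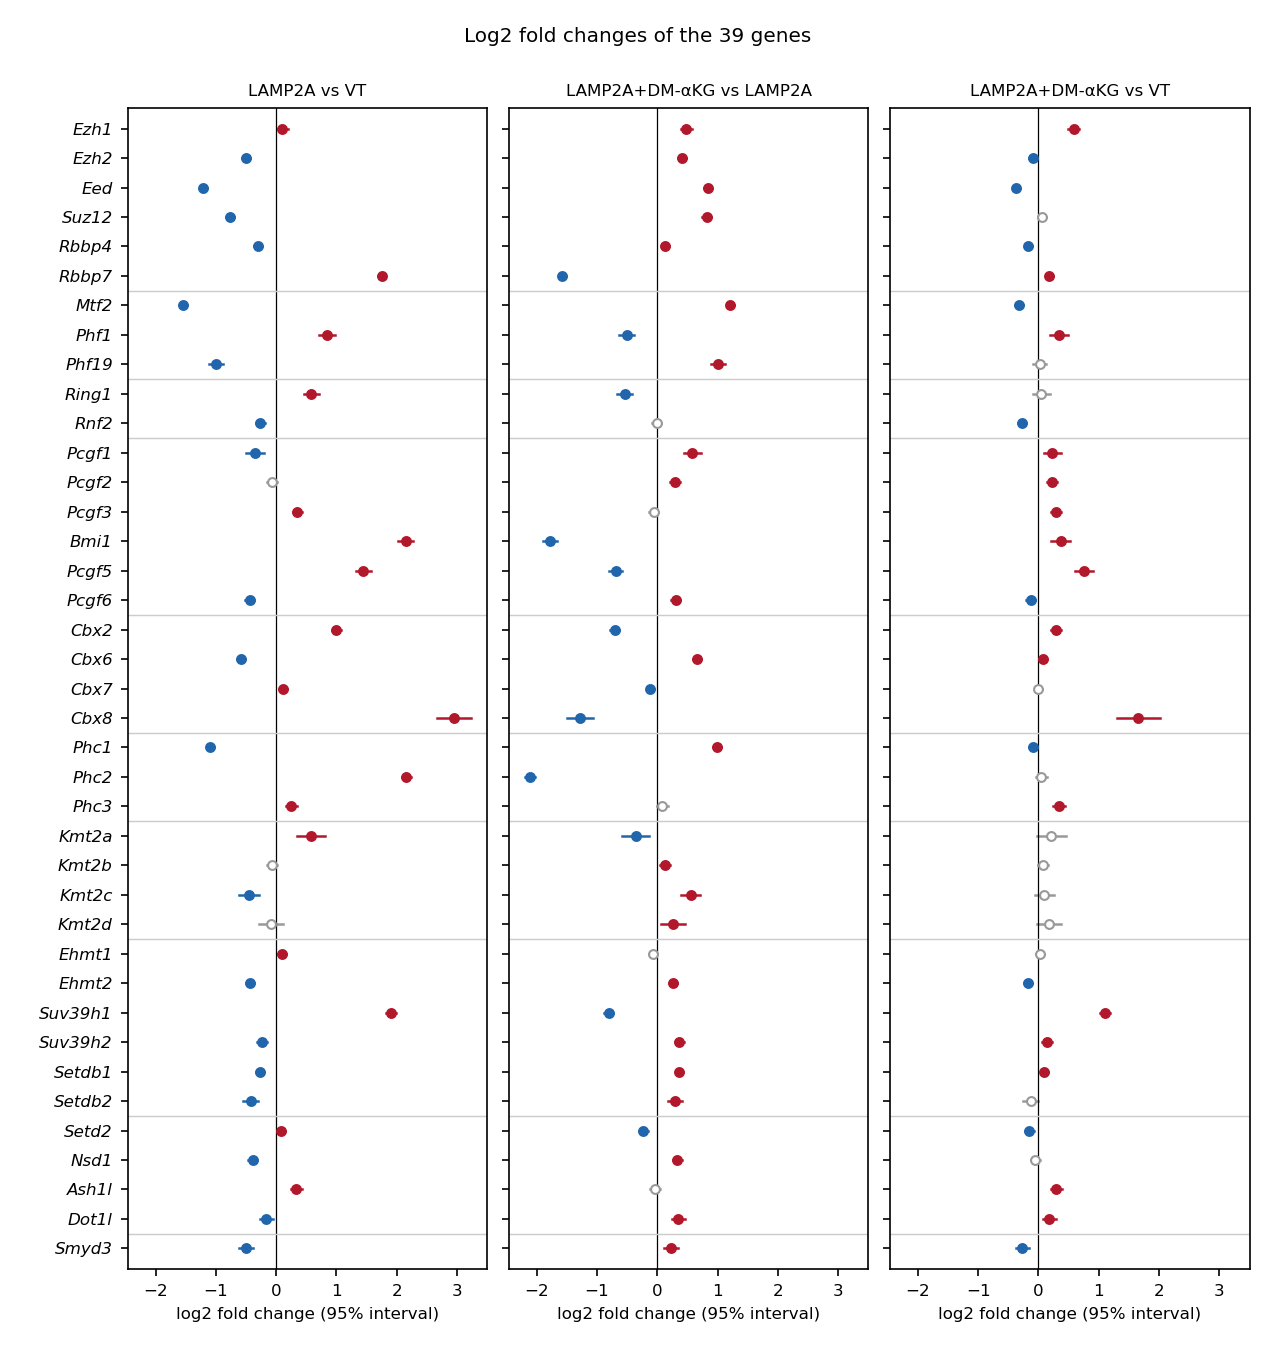
Log2 fold change of each of the 39 genes with its 95% interval in LAMP2A against VT, LAMP2A+DM-αKG against LAMP2A and LAMP2A+DM-αKG against VT. Red points were called higher, blue points lower, and open grey points did not pass the test. Values span -1.54 to 2.95 in the first panel and -0.37 to 1.66 in the third.

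In PRC1, the catalytic RING pair moved apart. Ring1 had 10.9, 11.6 and 11.6 CPM in LAMP2A+DM-αKG libraries, 16.2, 17.0 and 16.5 CPM in LAMP2A libraries and 10.4, 11.4 and 11.3 CPM in VT libraries. It was 1.4979-fold higher in LAMP2A than in VT (edgeR adjusted p = 2.0e-10), and its LAMP2A+DM-αKG libraries overlapped those of VT. Rnf2, the more abundant RING gene of these cells per kb of exon, had 164, 168 and 158 CPM in LAMP2A+DM-αKG libraries, 168, 162 and 164 CPM in LAMP2A libraries and 184, 199 and 209 CPM in VT libraries. It was 1.1996-fold lower in LAMP2A than in VT (edgeR adjusted p = 2.7e-08). Its LAMP2A+DM-αKG and LAMP2A libraries overlapped, with a log2 difference of -0.01 and a 95% interval from -0.08 to 0.06.

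Of the 6 PCGF genes, Bmi1, Pcgf5 and Pcgf3 rose in LAMP2A against VT, Pcgf1 and Pcgf6 fell, and Pcgf2 did not pass the test. Bmi1 (Pcgf4, chr2:18677018-18686629), a subunit of canonical PRC1 and a repressor of the Cdkn2a locus, had 15.1, 15.5 and 14.0 CPM in LAMP2A+DM-αKG libraries, 50.045, 50.2 and 53.3 CPM in LAMP2A libraries and 12.0, 9.84 and 12.8 CPM in VT libraries. LAMP2A libraries stood far above both other groups. Bmi1 was 4.44-fold higher in LAMP2A than in VT and 3.44-fold lower in LAMP2A+DM-αKG than in LAMP2A, with log2 fold changes of 2.15 (SE 0.06, edgeR adjusted p = 8.1e-27) and -1.78 (SE 0.06, edgeR adjusted p = 5.7e-25). Cdkn2a moved the same way as Bmi1. It averaged 8.15 ± 0.544 CPM in LAMP2A+DM-αKG cells, 31.6 ± 1.00 CPM in LAMP2A cells and 3.19 ± 0.391 CPM in VT cells (SD, n = 3 each). Pcgf2, the other canonical PCGF gene, had 97.3, 89.7 and 95.6 CPM in LAMP2A+DM-αKG libraries, 76.0, 78.6 and 75.1 CPM in LAMP2A libraries and 84.0, 82.5 and 75.2 CPM in VT libraries. Its LAMP2A and VT libraries overlapped, with a log2 fold change of -0.07 and a 95% interval from -0.15 to 0.01 (edgeR adjusted p = 0.0932), although it passed without VT replicate 3, at -0.12. It rose in LAMP2A+DM-αKG against LAMP2A, at 0.30 (SE 0.04, edgeR adjusted p = 1.8e-08).

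Pcgf5 and Pcgf3, of the variant PRC1 that ubiquitinates chromatin broadly, had different spans. Pcgf5 had 15.2, 15.3 and 15.7 CPM in LAMP2A+DM-αKG libraries, 26.2, 23.6 and 24.8 CPM in LAMP2A libraries and 8.56, 9.32 and 9.45 CPM in VT libraries, in 3 separate levels, and was 2.73-fold higher in LAMP2A than in VT and 1.69-fold higher in LAMP2A+DM-αKG than in VT. Pcgf3 had 78.0, 77.5 and 76.8 CPM in LAMP2A+DM-αKG libraries, 80.5, 78.0 and 83.7 CPM in LAMP2A libraries and 63.6, 60.0 and 65.8 CPM in VT libraries. Here LAMP2A+DM-αKG and LAMP2A libraries both lay above VT, at log2 fold changes of 0.29 (SE 0.04, edgeR adjusted p = 5.7e-08) and 0.35 (SE 0.04, edgeR adjusted p = 1.7e-10), and the difference between them did not pass (edgeR adjusted p = 0.134). Pcgf1, the partner of Kdm2b and Bcor at CpG islands, had 12.7, 12.4 and 13.3 CPM in LAMP2A+DM-αKG libraries, 8.73, 8.64 and 8.33 CPM in LAMP2A libraries and 10.8, 11.5 and 10.5 CPM in VT libraries, and was 1.27-fold lower in LAMP2A than in VT. Pcgf6, of the PRC1.6 complex that silences germline genes, had 64.5, 65.8 and 67.1 CPM in LAMP2A+DM-αKG libraries, 52.3, 54.4 and 52.8 CPM in LAMP2A libraries and 70.4, 74.2 and 71.4 CPM in VT libraries, and was 1.36-fold lower in LAMP2A than in VT.

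The CBX genes read H3K27 trimethylation, and Cbx7 is the CBX gene for which ES cells are known. Cbx7 had 247, 243 and 247 CPM in LAMP2A+DM-αKG libraries, 263, 267 and 269 CPM in LAMP2A libraries and 258, 242 and 239 CPM in VT libraries. Its log2 fold changes were small, 0.11 in LAMP2A against VT and -0.12 in LAMP2A+DM-αKG against LAMP2A, and the LAMP2A+DM-αKG and VT libraries overlapped. Cbx2, a CBX that compacts chromatin and is known from differentiated cells, had 52.3, 56.032 and 53.4 CPM in LAMP2A+DM-αKG libraries, 88.6, 87.7 and 88.5 CPM in LAMP2A libraries and 45.0, 44.3 and 43.3 CPM in VT libraries. No groups overlapped, and Cbx2 was 2.00-fold higher in LAMP2A than in VT, a log2 fold change of 1.00 (SE 0.04, edgeR adjusted p = 3.0e-23).

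Cbx8 had 3.66, 3.08 and 3.36 CPM in LAMP2A+DM-αKG libraries, 8.57, 7.08 and 9.11 CPM in LAMP2A libraries and 1.07, 0.998 and 1.12 CPM in VT libraries. It was the most raised of the 39 genes, 7.72-fold higher in LAMP2A than in VT, and the gene with the lowest level in VT. Its log2 fold changes were 2.95 (SE 0.14, edgeR adjusted p = 3.9e-20) in LAMP2A against VT, -1.29 (SE 0.10, edgeR adjusted p = 2.4e-13) in LAMP2A+DM-αKG against LAMP2A and 1.66 (SE 0.18, edgeR adjusted p = 6.4e-10) in LAMP2A+DM-αKG against VT. Cbx2 and Cbx8 are neighbours on chromosome 11, with 5.03 kb between them. Cbx6, a further CBX gene, had 128, 129 and 127 CPM in LAMP2A+DM-αKG libraries, 78.4, 80.6 and 83.4 CPM in LAMP2A libraries and 120.1, 124 and 118 CPM in VT libraries, and was 1.49-fold lower in LAMP2A than in VT. It lies 81.1 kb from Cbx7 on chromosome 15, where Cbx7 was 1.08-fold higher.

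Phc1 and Phc2 moved in opposite directions in LAMP2A against VT. Their proteins polymerise through a SAM domain and cluster PRC1-bound chromatin. Phc1 (chr6:122317731-122340561) had 365, 350.1 and 357 CPM in LAMP2A+DM-αKG libraries, 177, 182 and 179 CPM in LAMP2A libraries and 400.2, 366 and 379 CPM in VT libraries. Phc2 (chr4:128654702-128752881) had 28.0, 30.4 and 29.7 CPM in LAMP2A+DM-αKG libraries, 126, 131 and 126 CPM in LAMP2A libraries and 29.0, 28.9 and 27.5 CPM in VT libraries. Phc1 was 2.13-fold lower in LAMP2A than in VT, a log2 fold change of -1.09 (SE 0.03, edgeR adjusted p = 2.0e-26), and 1.99-fold higher in LAMP2A+DM-αKG than in LAMP2A. Phc2 was 4.48-fold higher in LAMP2A than in VT, a log2 fold change of 2.16 (SE 0.04, edgeR adjusted p = 1.2e-32), and 4.33-fold lower in LAMP2A+DM-αKG than in LAMP2A. In LAMP2A+DM-αKG against VT, the Phc2 libraries overlapped (edgeR adjusted p = 0.401), and Phc1 was lower by a small amount, -0.10 (SE 0.03, edgeR adjusted p = 0.00834), a call that was lost without LAMP2A+DM-αKG replicate 2, at -0.08, and without VT replicate 1, at -0.06 (edgeR adjusted p = 0.0752). Phc1 lies 367 kb from the pluripotency gene Nanog on chromosome 6, which averaged 914 ± 12.3 CPM in LAMP2A+DM-αKG cells, 269.6 ± 2.78 CPM in LAMP2A cells and 999.9 ± 23.4 CPM in VT cells (SD, n = 3 each). Phc3 had 48.2, 47.4 and 51.6 CPM in LAMP2A+DM-αKG libraries, 46.3, 46.6 and 46.0 CPM in LAMP2A libraries and 39.3, 35.978 and 41.2 CPM in VT libraries, with both LAMP2A+DM-αKG and LAMP2A above VT.

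A list of 24 genes of other PRC1 subunits and of the H2A deubiquitinase PR-DUB had 22 tested members, all called in LAMP2A against VT, 15 higher and 7 lower, with a median log2 fold change of 0.49. With DM-αKG, 7 rose and 14 fell against LAMP2A (median -0.42), and 9 rose and 6 fell against VT (median 0.09). The share called was 100%, 95.5% and 68.2% in these 3 comparisons, against 85.1%, 83.2% and 58.7% of all genes. Bcor, the corepressor that joins Pcgf1 in variant PRC1, averaged 28.6 ± 1.09 CPM in LAMP2A+DM-αKG cells, 132 ± 1.62 CPM in LAMP2A cells and 24.9 ± 0.857 CPM in VT cells (SD, n = 3 each). Yaf2, which occupies the CBX position in variant PRC1, was 3.76-fold higher in LAMP2A than in VT and 2.96-fold lower in LAMP2A+DM-αKG than in LAMP2A. Usp7, a deubiquitinase found with PRC1, was 1.72-fold lower in LAMP2A than in VT and 1.53-fold higher in LAMP2A+DM-αKG than in LAMP2A.

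Paralogs were then compared within each library, as the ratio of their counts, which scaling between libraries does not touch. The ratios are not corrected for exon length, so a value below or above 1 does not tell which paralog is more abundant. Rbbp7 has 2.91 kb of exon and Rbbp4 8.74 kb. Per kb, Rbbp7 held 70.5% of the pair in LAMP2A+DM-αKG cells, 88.7% in LAMP2A cells and 65.3% in VT cells. The ratio of Rbbp7 to Rbbp4 was 0.784 to 0.804 in LAMP2A+DM-αKG libraries, 2.55 to 2.66 in LAMP2A libraries and 0.609 to 0.655 in VT libraries. Bmi1 to Pcgf2 was 0.147 to 0.173 in LAMP2A+DM-αKG libraries, 0.638 to 0.709 in LAMP2A libraries and 0.119 to 0.170 in VT libraries. For Cbx2 to Cbx7 the ratio was 0.212 to 0.231 in LAMP2A+DM-αKG libraries, 0.328 to 0.337 in LAMP2A libraries and 0.175 to 0.183 in VT libraries. Ezh1 to Ezh2 was 0.190 to 0.195 in LAMP2A+DM-αKG libraries, 0.178 to 0.184 in LAMP2A libraries and 0.117 to 0.126 in VT libraries. LAMP2A exceeded VT by 4.16-fold for Rbbp7 to Rbbp4, 4.69-fold for Bmi1 to Pcgf2, 1.84-fold for Cbx2 to Cbx7 and 1.51-fold for Ezh1 to Ezh2, with no overlap of the ranges. With 3 libraries against 3, an exact two-sided permutation test cannot go below 0.1. Of the 12 tests (4 ratios in 3 comparisons), 11 gave exact p = 0.1 (adjusted 0.109), and Bmi1 to Pcgf2 in LAMP2A+DM-αKG against VT, where the ranges overlapped, gave exact p = 0.4, so no ratio could pass.

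A further 3 ratios were chosen after the values of the genes were seen, and are given without a test. Phc2 to Phc1 was 0.0767 to 0.0869 in LAMP2A+DM-αKG libraries, 0.704 to 0.718 in LAMP2A libraries and 0.0724 to 0.0789 in VT libraries. Suv39h1 to Suv39h2 was 1.09 to 1.14 in LAMP2A+DM-αKG libraries, 2.39 to 2.64 in LAMP2A libraries and 0.528 to 0.6004 in VT libraries. Phf1 to Mtf2 was 0.0288 to 0.0329 in LAMP2A+DM-αKG libraries, 0.0951 to 0.105 in LAMP2A libraries and 0.0177 to 0.0215 in VT libraries.

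**Figure D3:**
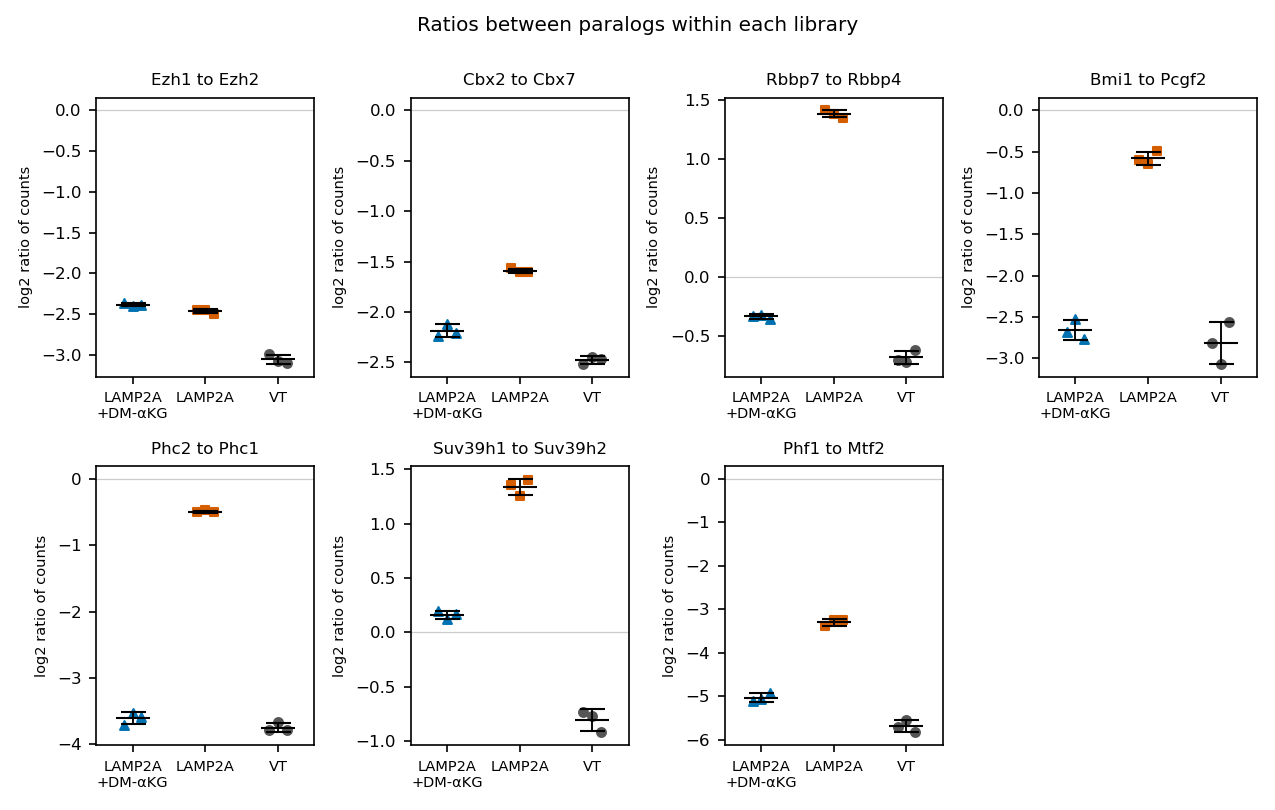
Log2 ratio of the counts of 2 paralogs in each library, not corrected for exon length, with the mean and SD of the 3 libraries of a group. The grey line marks equal counts. The LAMP2A libraries stand above both other groups in every panel except Ezh1 to Ezh2, where LAMP2A+DM-αKG is above LAMP2A by 0.08, and the y axes differ between panels.

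Levels of different genes were compared per kb of annotated exon (CPM per kb), which sets each gene's share of its family. Rbbp7 ranked first of the 39 in all 3 groups, at 145 ± 1.32 CPM per kb in LAMP2A+DM-αKG cells, 432 ± 3.55 CPM per kb in LAMP2A cells and 128 ± 3.83 CPM per kb in VT cells (SD, n = 3 each). Mtf2 ranked second in LAMP2A+DM-αKG, sixth in LAMP2A and second in VT. Rbbp4 and Rbbp7 together came to 206 CPM per kb in LAMP2A+DM-αKG cells, 487 CPM per kb in LAMP2A cells and 196 CPM per kb in VT cells. Phc1 made up 90.6% of the PHC family in LAMP2A+DM-αKG cells, 62.1% in LAMP2A cells and 92.0% in VT cells. The PHC sum was 74.4 CPM per kb in LAMP2A+DM-αKG cells, 54.6 CPM per kb in LAMP2A cells and 78.3 CPM per kb in VT cells. Phc2 took 5.59% in LAMP2A+DM-αKG cells, 33.1% in LAMP2A cells and 5.15% in VT cells. Bmi1 took 6.19% of the PCGF family in LAMP2A+DM-αKG cells, 21.2% in LAMP2A cells and 5.37% in VT cells, and Pcgf2 was its most abundant gene in each group. The sum of the Polycomb-like family was 90.3 CPM per kb in LAMP2A+DM-αKG cells, 43.3 CPM per kb in LAMP2A cells and 110 CPM per kb in VT cells. Cbx7 was the most abundant of the 4 CBX genes in every group, with 59.6% in LAMP2A+DM-αKG cells, 57.3% in LAMP2A cells and 63.2% in VT cells, and Ezh2 held 85.3% of the EZH sum in LAMP2A+DM-αKG cells, 86.0% in LAMP2A cells and 90.3% in VT cells.

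**Figure D4:**
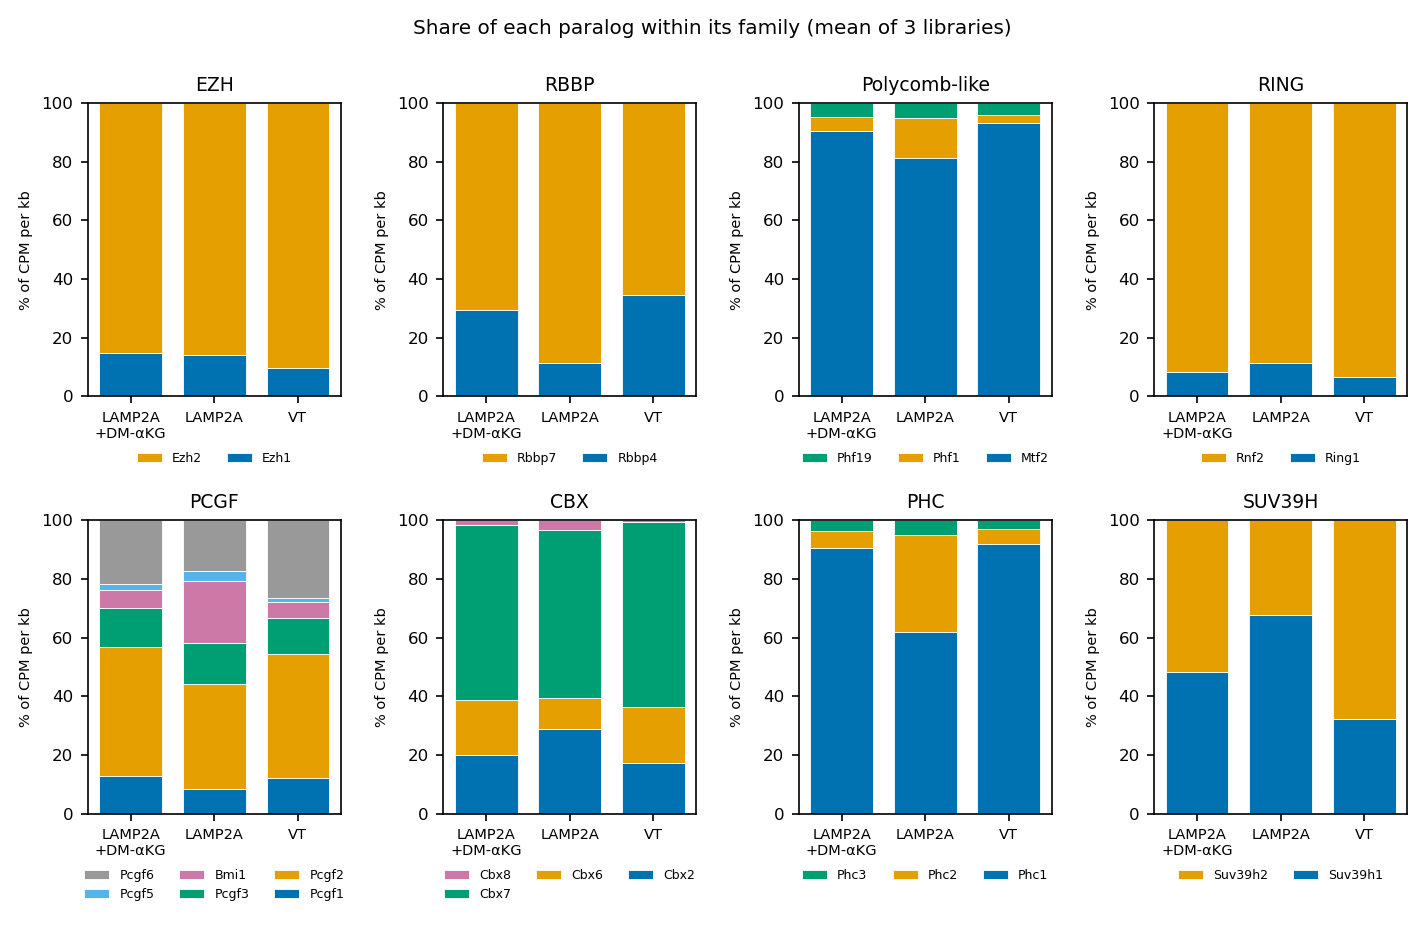
Share of each paralog in the summed CPM per kb of its family (mean of 3 libraries) in LAMP2A+DM-αKG, LAMP2A and VT, for 8 families. The second PHC band (Phc2) takes 33.1% in LAMP2A, against 5.15% in VT, and Suv39h1 takes 67.9% of SUV39H in LAMP2A, against 32.4% in VT.

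Of the KMT2 genes, whose products methylate H3K4 at promoters and enhancers, Kmt2a rose and Kmt2c fell in LAMP2A against VT, and the other two did not pass the test. Kmt2a had 155, 146 and 159 CPM in LAMP2A+DM-αKG libraries, 199, 199 and 193 CPM in LAMP2A libraries and 142, 111 and 143 CPM in VT libraries. It was 1.49-fold higher in LAMP2A than in VT, a log2 fold change of 0.58 (SE 0.10, edgeR adjusted p = 9.6e-04), and fell in LAMP2A+DM-αKG against LAMP2A, at -0.36 (SE 0.09, edgeR adjusted p = 0.00987). Kmt2c, an enhancer enzyme, had 168, 158 and 169 CPM in LAMP2A+DM-αKG libraries, 115, 111 and 111 CPM in LAMP2A libraries and 161, 135 and 166 CPM in VT libraries. Its log2 fold changes were -0.45 (SE 0.07, edgeR adjusted p = 2.3e-04) in LAMP2A against VT and 0.55 (SE 0.07, edgeR adjusted p = 5.7e-05) in LAMP2A+DM-αKG against LAMP2A. Kmt2d, the other enhancer enzyme, had 188, 173 and 189 CPM in LAMP2A+DM-αKG libraries, 153, 155 and 152 CPM in LAMP2A libraries and 182, 142 and 164 CPM in VT libraries, and Kmt2b, known at CpG-rich promoters, had 199.8, 197 and 195 CPM in LAMP2A+DM-αKG libraries, 178, 178 and 183 CPM in LAMP2A libraries and 207, 176 and 182 CPM in VT libraries. Their LAMP2A and VT libraries overlapped. Both rose in LAMP2A+DM-αKG against LAMP2A, Kmt2b at 0.13 (SE 0.04, edgeR adjusted p = 0.00444) and Kmt2d at 0.26 (SE 0.09, edgeR adjusted p = 0.0227), but Kmt2d not without LAMP2A+DM-αKG replicate 3 or LAMP2A replicate 1 or 3, at 0.24 to 0.26. None of the 4 genes passed in LAMP2A+DM-αKG against VT (edgeR adjusted p = 0.101 for Kmt2a, 0.153 for Kmt2b, 0.262 for Kmt2c and 0.112 for Kmt2d), although Kmt2c passed with no filter on low counts, at 0.10 (edgeR adjusted p = 0.0269).

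VT replicate 2 was the lowest VT library for all 4 KMT2 genes, and for Nsd1, Ash1l, Setd2 and Dot1l. In that library, genes with over 10000 exon bases lay a median of 0.07 below the VT mean on the log2 scale, against 0.02 and 0.05 above it in VT replicates 1 and 3, while the median of all genes was 0.01 above it. Without VT replicate 2, the log2 fold change of Kmt2a in LAMP2A against VT was 0.47 and that of Kmt2c -0.54. Kmt2b and Kmt2d then passed the test, at -0.11 and -0.17, whereas without VT replicate 1 they were at 0.006 and 0.005. Kmt2a passed in LAMP2A+DM-αKG against VT without VT replicate 2, at 0.11, and so did Kmt2d, at 0.09, and Kmt2d also without VT replicate 1, at 0.27, as did Kmt2b, at 0.14.

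Partners of the KMT2 and SETD1 enzymes were read from a list of 16 genes, which also held the enzyme genes Setd1a and Setd1b. In LAMP2A against VT, 3 rose and 11 fell, with a median log2 fold change of -0.21. With DM-αKG, 12 rose and 2 fell against LAMP2A (median 0.16), and 4 rose and 7 fell against VT (median 0.04). Of the 16, 87.5%, 87.5% and 68.8% were called in these 3 comparisons, against 85.1%, 83.2% and 58.7% of all genes. Dpy30, a core subunit that raises the activity of all these enzymes, averaged 135 ± 3.40 CPM in LAMP2A+DM-αKG cells, 66.0 ± 0.310 CPM in LAMP2A cells and 162 ± 8.08 CPM in VT cells (SD, n = 3 each). Wdr5, another core subunit, was 2.04-fold lower in LAMP2A than in VT, and Wdr82, of the SETD1 complexes, was 1.74-fold lower.

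Among the 6 H3K9 methyltransferases of the 39, Suv39h1 rose 3.77-fold in LAMP2A against VT, and the other 5 differed by at most 1.35-fold (Ehmt2). Suv39h1 (chrX:8061171-8074760), which trimethylates H3K9 in pericentric heterochromatin, had 59.0, 58.6 and 59.1 CPM in LAMP2A+DM-αKG libraries, 103, 101 and 106 CPM in LAMP2A libraries and 28.1, 28.3 and 25.8 CPM in VT libraries. The 3 groups did not overlap. Suv39h1 was 3.77-fold higher in LAMP2A than in VT and 2.15-fold higher in LAMP2A+DM-αKG than in VT, with log2 fold changes of 1.91 (SE 0.04, edgeR adjusted p = 1.2e-30) and 1.11 (SE 0.04, edgeR adjusted p = 3.1e-21). It was lower in LAMP2A+DM-αKG than in LAMP2A, at -0.81 (SE 0.04, edgeR adjusted p = 8.6e-21). Its paralog Suv39h2 had 51.6, 53.9 and 52.5 CPM in LAMP2A+DM-αKG libraries, 40.2, 42.2 and 40.0 CPM in LAMP2A libraries and 46.7, 48.1 and 48.8 CPM in VT libraries, and was 1.17-fold lower in LAMP2A than in VT. Genes on the opposite strand share 14.6% of the exon bases of Suv39h1 and 9.98% of those of Suv39h2.

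Ehmt2 (G9a), which dimethylates H3K9 in euchromatin, had 184, 183 and 186 CPM in LAMP2A+DM-αKG libraries, 150.4, 156 and 156 CPM in LAMP2A libraries and 213, 213 and 198 CPM in VT libraries, and was 1.35-fold lower in LAMP2A than in VT (edgeR adjusted p = 8.4e-15). Ehmt1 (GLP), its obligate partner, had 115, 109 and 114 CPM in LAMP2A+DM-αKG libraries, 116, 119.8 and 119 CPM in LAMP2A libraries and 113, 108 and 113 CPM in VT libraries. Its log2 fold change in LAMP2A against VT was 0.09 (edgeR adjusted p = 0.0123), a call lost without LAMP2A replicate 2, at 0.08. Setdb1, which silences endogenous retroviruses in ES cells, had 212, 206 and 206 CPM in LAMP2A+DM-αKG libraries, 159.6, 160.2 and 164 CPM in LAMP2A libraries and 197, 189 and 197 CPM in VT libraries, and was 1.21-fold lower in LAMP2A than in VT (edgeR adjusted p = 4.8e-10) and 1.29-fold higher in LAMP2A+DM-αKG than in LAMP2A. Setdb2, its relative, had 20.0, 20.9 and 21.4 CPM in LAMP2A+DM-αKG libraries, 18.7, 16.2 and 15.8 CPM in LAMP2A libraries and 22.8, 23.4 and 22.1 CPM in VT libraries, and fell in LAMP2A against VT, at -0.42 (SE 0.06, edgeR adjusted p = 6.6e-08).

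Of 13 genes of H3K9 methylation partners and readers, 3 rose and 9 fell in LAMP2A against VT (median log2 fold change -0.23). With DM-αKG, 8 rose and 4 fell against LAMP2A (median 0.11), and 1 rose and 6 fell against VT (median -0.08). The share called was 92.3%, 92.3% and 53.8% in these 3 comparisons, against 85.1%, 83.2% and 58.7% of all genes. Trim28 (KAP1), which recruits Setdb1, averaged 1656 ± 11.1 CPM in LAMP2A+DM-αKG cells, 1271 ± 9.29 CPM in LAMP2A cells and 2145 ± 71.6 CPM in VT cells (SD, n = 3 each). Tasor (listed as Fam208a), of the HUSH silencing complex, was 1.64-fold lower in LAMP2A than in VT, and Pphln1, of the same complex, was 1.54-fold higher.

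The 4 H3K36 and H3K79 enzymes among the 39 (Nsd1, Ash1l, Setd2 and Dot1l) differed between LAMP2A and VT by at most 1.31-fold (Nsd1). Nsd1, which dimethylates H3K36, had 467, 453 and 474 CPM in LAMP2A+DM-αKG libraries, 372, 371 and 363 CPM in LAMP2A libraries and 502, 441 and 505 CPM in VT libraries. It was 1.31-fold lower in LAMP2A than in VT, at -0.39 (SE 0.04, edgeR adjusted p = 2.3e-10), and 1.26-fold higher in LAMP2A+DM-αKG than in LAMP2A. Ash1l, an H3K36 enzyme of the Trithorax group that opposes Polycomb silencing, had 78.2, 76.1 and 76.4 CPM in LAMP2A+DM-αKG libraries, 80.5, 80.1 and 75.9 CPM in LAMP2A libraries and 65.2, 56.5 and 66.1 CPM in VT libraries, and was 1.26-fold higher in LAMP2A than in VT. Dot1l, the H3K79 methyltransferase, had 128, 118 and 130.4 CPM in LAMP2A+DM-αKG libraries, 99.0, 100.3 and 96.9 CPM in LAMP2A libraries and 120.5, 101 and 112 CPM in VT libraries. It was 1.12-fold lower in LAMP2A than in VT, at -0.17 (SE 0.05, edgeR adjusted p = 0.00626), and this was -0.11 without VT replicate 1 and did not pass without VT replicate 3, at -0.16. In LAMP2A+DM-αKG against VT it was 0.18, or 0.12 without VT replicate 2, and the libraries of the groups overlapped.

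Setd2, which trimethylates H3K36 along transcribed genes, had 166, 165 and 169 CPM in LAMP2A+DM-αKG libraries, 199, 196 and 192 CPM in LAMP2A libraries and 183, 173 and 199 CPM in VT libraries. LAMP2A and VT libraries overlapped, and the log2 fold change was 0.08 (SE 0.04, edgeR adjusted p = 0.0371). It was 0.03 without VT replicate 2 (edgeR adjusted p = 0.294) and 0.13 without VT replicate 3, and the call was also lost without LAMP2A replicate 1 or 2 or VT replicate 1. The authors' deposited table gives Setd2 0.08 with an adjusted p of 0.10. Setd2 fell in LAMP2A+DM-αKG against LAMP2A, at -0.23 (SE 0.04, edgeR adjusted p = 3.3e-07), and against VT it was -0.15, or -0.10 without VT replicate 3. Smyd3, a methyltransferase with both histone and cytoplasmic substrates, had 21.1, 21.4 and 22.7 CPM in LAMP2A+DM-αKG libraries, 19.4, 17.6 and 18.9 CPM in LAMP2A libraries and 26.7, 27.0 and 25.1 CPM in VT libraries. Smyd3 was 1.41-fold lower in LAMP2A than in VT (edgeR adjusted p = 2.5e-10) and 1.17-fold higher in LAMP2A+DM-αKG than in LAMP2A.

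A further list held 31 other genes of histone lysine methyltransferase families. Not all of them encode an enzyme shown to methylate histones, and Setd1a and Setd1b were also in the list of KMT2 and SETD1 partners. Its 28 tested members rose in 14 cases and fell in 9 in LAMP2A against VT (median log2 fold change 0.10). With DM-αKG, 12 rose and 11 fell against LAMP2A (median 0.04), and 14 rose and 6 fell against VT (median 0.11). Of the 28, 82.1%, 82.1% and 71.4% were called in these 3 comparisons, against 85.1%, 83.2% and 58.7% of all genes. Setd7, an H3K4 monomethyltransferase that also modifies other proteins, averaged 20.8 ± 0.301 CPM in LAMP2A+DM-αKG cells, 113 ± 4.87 CPM in LAMP2A cells and 15.0 ± 0.825 CPM in VT cells (SD, n = 3 each). Nsd2 (listed as Whsc1), an H3K36 enzyme, was 2.52-fold higher in LAMP2A than in VT and 2.39-fold lower in LAMP2A+DM-αKG than in LAMP2A. Prdm14, a regulator of naive pluripotency, was 3.56-fold lower in LAMP2A than in VT and 2.96-fold higher in LAMP2A+DM-αKG than in LAMP2A.

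Genes known as Polycomb targets in ES cells were read from a list of 36, of which 13 had too few counts to be tested. Of the 23 tested, 21 were higher and 2 lower (Neurod1 and Tbx3) in LAMP2A against VT. Tbx3 was no silent gene in these cells, with 258 ± 6.15 CPM in LAMP2A+DM-αKG cells, 184 ± 3.27 CPM in LAMP2A cells and 321 ± 7.72 CPM in VT cells (SD, n = 3 each), and Neurod1 averaged 1.12 ± 0.118 CPM in LAMP2A+DM-αKG cells, 0.412 ± 0.141 CPM in LAMP2A cells and 2.00 ± 0.198 CPM in VT cells. Both are named after their values were seen. Genes with almost no counts in VT entered the test through their LAMP2A counts, so the number tested and called is a description only. Hand1, a mesoderm factor, averaged 0.359 ± 0.238 CPM in LAMP2A+DM-αKG cells, 59.8 ± 2.47 CPM in LAMP2A cells and 0.294 ± 0.0752 CPM in VT cells (SD, n = 3 each). Irx3, a homeobox gene, averaged 1.1986 ± 0.284 CPM in LAMP2A+DM-αKG cells, 43.5 ± 0.915 CPM in LAMP2A cells and 0.306 ± 0.0250 CPM in VT cells (SD, n = 3 each). Gata3, a trophectoderm factor, averaged 0.567 ± 0.0552 CPM in LAMP2A+DM-αKG cells, 33.0 ± 0.152 CPM in LAMP2A cells and 0.218 ± 0.0306 CPM in VT cells (SD, n = 3 each). Its folds, 149-fold higher in LAMP2A than in VT and 58.0-fold lower in LAMP2A+DM-αKG than in LAMP2A, rest on near-zero levels. Gata3 had 17 counts over all VT libraries and 45 over all LAMP2A+DM-αKG libraries. Of the 23, 3 were higher and 18 lower in LAMP2A+DM-αKG against LAMP2A, and 8 were higher and 3 lower in LAMP2A+DM-αKG against VT. The share called was 100%, 91.3% and 47.8% in the 3 comparisons, against 85.1%, 83.2% and 58.7% of all genes.

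For the germline genes that PRC1.6 is known to silence, 11 of 12 were tested. In LAMP2A against VT, 7 rose and 2 fell (median log2 fold change 0.66), in LAMP2A+DM-αKG against LAMP2A, 3 rose and 7 fell (median -0.29), and in LAMP2A+DM-αKG against VT, 8 rose and 1 fell (median 0.77). Of the 11, 81.8%, 90.9% and 81.8% were called in these comparisons, against 85.1%, 83.2% and 58.7% of all genes. Ddx4, a germ cell helicase, averaged 61.2 ± 1.65 CPM in LAMP2A+DM-αKG cells, 74.9 ± 2.26 CPM in LAMP2A cells and 21.2 ± 1.78 CPM in VT cells (SD, n = 3 each). Tdrkh, of the piRNA pathway, was 6.02-fold higher in LAMP2A than in VT, and Mael, of the same pathway, was 3.05-fold higher. The 2 that fell were Hormad1, 3.37-fold lower in LAMP2A than in VT, and Sycp3, 1.45-fold lower, both named after their values were seen. Ddx4 was also 2.89-fold higher in LAMP2A+DM-αKG than in VT (edgeR adjusted p = 9.0e-24).

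**Figure D5:**
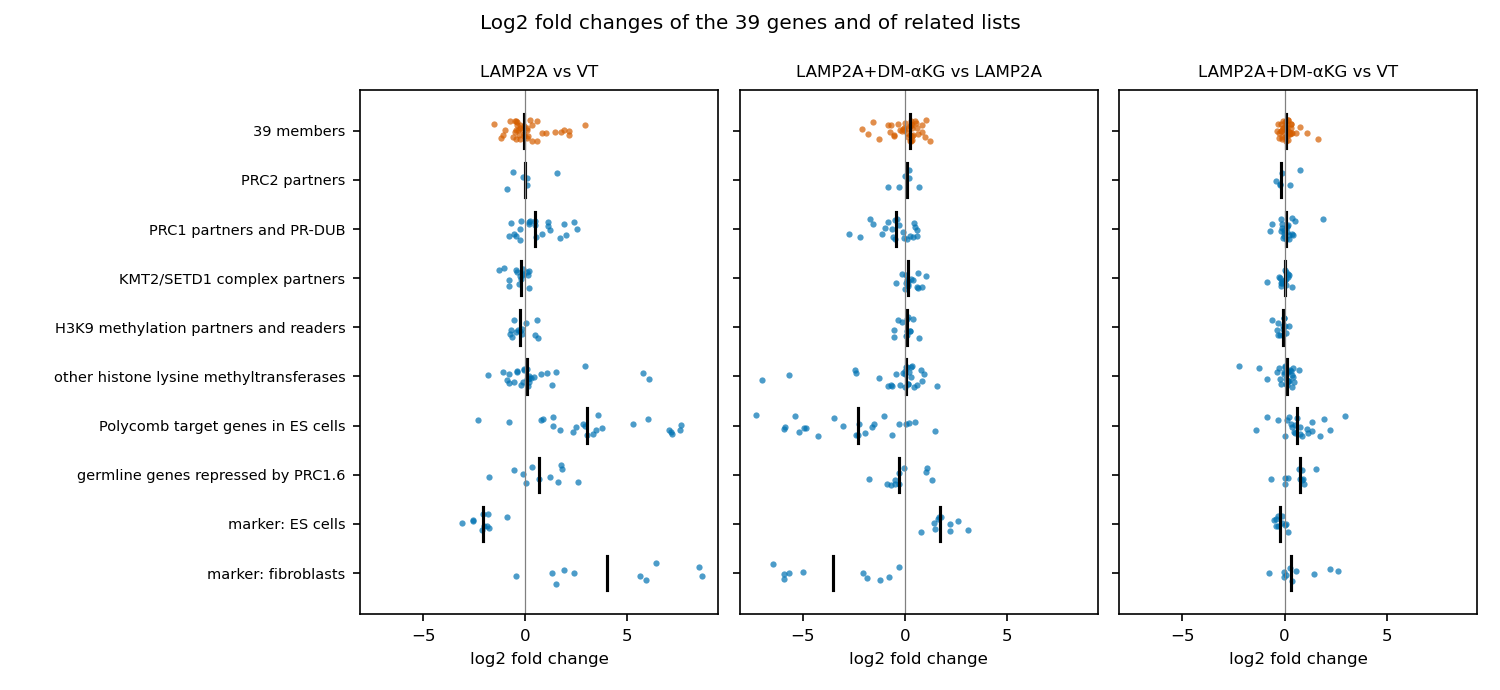
Log2 fold changes of the 39 genes (first row) and of the tested genes of the related lists and marker lists, 1 point a gene, with the median of each row as a black bar. The medians of the 39 genes are -0.08, 0.23 and 0.08 in the 3 panels, and the ES cell markers are all below 0 in LAMP2A against VT. The Polycomb target row holds its 23 tested genes, of 36.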

How the data were processed

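RNA of 9 libraries was sequenced, with a stranded mRNA kit per the labels' protocols. The deposited table holds whole-number counts for each gene symbol, not normalized. STAR 2.7.1, HTSeq 0.11.2 and build mm10 come from the submitters' processing notes, and no source used here names the annotation or the strand setting. The authors' 2 deposited tables of comparisons, credited to DESeq2 in those notes, hold, per the file headers, p-values raw and adjusted, a test score, log2 values (the fold change and its error) and a signal (the mean of normalized counts). Only their log2 fold changes and adjusted p-values are printed, as "the authors' deposited table".

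Counts were fitted here with edgeR 4.0.16 (R 4.3.3): filterByExpr, TMM factors (0.989 to 1.01), a robust quasi-likelihood fit of all 9 libraries with 6 residual degrees of freedom, and Benjamini-Hochberg adjustment over 14513 genes. SE is the size of the log2 fold change divided by the root of its F statistic, and intervals are 95%. Counting error weighs more on the genes with fewer counts. Over the VT libraries, Cbx8 had 83 counts, Pcgf5 714 and Eed 23749. Their SE in LAMP2A against VT was 0.14, 0.06 and 0.03. Exon lengths and coordinates are GENCODE's for mm10, matched by symbol. The edgeR fit was tested on simulated counts, for LAMP2A against VT only. The simulation set the same spread for all genes and had far fewer changed genes than were called here. It did not cover the ratios, the family shares or the promoter windows.

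Alternatives were RLE factors, DESeq2 1.42.0, no filter, the groups compared alone, a replicate block and leaving out each library. Replicates differed by more than sampling noise, so none were merged. Chi-square over its degrees of freedom was 2.97 to 5.66 between VT libraries. It was 1.47 to 2.36 between LAMP2A libraries and 1.19 to 1.86 between LAMP2A+DM-αKG libraries. The 39 genes, the related lists and the tests were chosen with earlier results of these data known. Named besides the 39 genes are the 3 genes of each related list with the smallest p in LAMP2A against VT, markers, and Lamp2. Cdkn2a, Neurod1, Tbx3, Hormad1 and Sycp3 are named after their values were seen. The last 3 ratios were picked after their values were seen.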

Additional observations from a re-analysis of the deposited data

How the results depend on the processing

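Over 11 alternatives a comparison, the number of the 39 genes called ran from 33 to 37 in LAMP2A against VT, 33 to 36 in LAMP2A+DM-αKG against LAMP2A and 25 to 30 in LAMP2A+DM-αKG against VT. All genes called ran from 12107 to 13179, 11750 to 12820 and 7347 to 8561 in the same order. Of the 117 log2 fold changes (39 genes in 3 comparisons), 95 kept their direction and their side of the threshold under every alternative run. The 7 values that changed direction were all near 0 and not called: in LAMP2A against VT, Kmt2b (0.006) and Kmt2d (0.005) without VT replicate 1; in LAMP2A+DM-αKG against LAMP2A, Rnf2 without LAMP2A+DM-αKG replicate 3 (0.017) or LAMP2A replicate 1 (0.006); and in LAMP2A+DM-αKG against VT, Cbx7 with only those groups fitted (0.003), without LAMP2A+DM-αKG replicate 2 (0.005) or without VT replicate 1 (0.029). Left out 1 library at a time, Kmt2b ran from -0.111 to 0.006, Kmt2d from -0.170 to 0.005, Rnf2 from -0.026 to 0.017 and Cbx7 from -0.025 to 0.029 in these comparisons. The cause was not tested. In LAMP2A+DM-αKG against VT, Cbx6 (0.08) lost its call with DESeq2 and in 5 of the fits that left out a library. With DESeq2, Ezh1 lost its call in LAMP2A against VT (adjusted p = 0.085), as it did with no filter (0.0559) and with only those groups fitted (0.0546). Setd2 in LAMP2A against VT and Ezh2 in LAMP2A+DM-αKG against VT also lost theirs with only the groups compared fitted (0.0666 and 0.0644). In LAMP2A+DM-αKG against LAMP2A, Ehmt1 was called with RLE factors (-0.08), and Ehmt1 (-0.07) and Phc3 (0.09) with only those groups fitted. The median of all genes shifted by at most 0.01 on the log2 scale. The ratios kept their direction when 0.5 counts were added or a library was left out.

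Same-numbered libraries showed no shared deviation over all genes: their deviations from the group means correlated at -0.027 to 0.012 across genes. This cannot exclude a pairing whose effect is small beside the counting noise or limited to few genes. With a replicate block, 36, 34 and 30 of the 39 genes were called in the 3 comparisons. The added calls in LAMP2A+DM-αKG against VT were Kmt2a (0.22), Kmt2c (0.10) and Kmt2d (0.18).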
